A study of Mus musculus with 14 samples.

Results

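Pou2af1, Pou2f1 and Pou2f2 encode the octamer system of the B cell. The peaks described are those of 9 ChIP-seq lists from mouse cells that overlapped the body of 1 of these 3 genes extended by 10 kb on each side (build GRCm38). Of 196179 peaks in the 9 lists, 111 met this rule, 22 at Pou2af1, 39 at Pou2f1 and 50 at Pou2f2. When overlapping peaks of different lists were merged, they made 25 sites, 4 at Pou2af1, 8 at Pou2f1 and 13 at Pou2f2. The genes were chosen by name, with earlier results of these data known, and their peaks were taken by position.

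Octamer factors carry a POU domain that binds the octamer, an 8-base element of immunoglobulin promoters and enhancers. Pou2f1 encodes Oct1, which most cells make, and Pou2f2 encodes Oct2, which is largely a factor of lymphoid and neural cells. Pou2af1 encodes the coactivator known as OBF-1, OCA-B or Bob1, which does not bind DNA alone but clamps the POU domain of Oct1 or Oct2 on the octamer, and is needed for germinal centres. EBF1 is a transcription factor that starts the B-cell programme, and Brg1 (gene Smarca4) is the motor subunit of BAF complexes, which move nucleosomes.

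The fetal liver cells gave 5 Brg1 libraries. They came from c-kit+ progenitors of EBF1 -/- C57BL/6 embryos of day 16 to 18, transduced with pMys vectors that carry GFP and kept for 14 to 20 days on OP9 stromal cells with IL7, SCF and Flt3. The vectors held EBF1 dC (the C-terminal domain deleted), EBF1 dPLD (residues 480 to 520 deleted), EBF1 F-GATA3 (its C-terminal domain exchanged for the TA1 domain of GATA3), EBF1 wt, or no EBF1 (empty). Brg1 and EBF1 were also profiled in A-MuLV cells, which are Abelson-virus-transformed pro-B cells from EBF1 fl/fl C57BL/6 fetal liver in which dC or wt stands in for the cells' own EBF1, with 1 library each. The labels place dC and dPLD fetal liver cells as partly blocked before the pro-B stage, F-GATA3 and wt cells at it, and empty-vector cells as blocked before it, so between dC, dPLD or empty and wt the EBF1 version and the stage cannot be told apart. F-GATA3 and wt share a stage label, as do dC and dPLD. The sample descriptions call the dC and dPLD cells pro-B all the same. Both kinds of A-MuLV cell are labelled pro-B.

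With 1 library per group there was no replicate and no test across groups. Sequencing depth is unknown, so the absence of a peak means that none was called, not that Brg1 or EBF1 was absent. The lists held 30301 (dC), 27550 (dPLD), 25072 (F-GATA3), 29354 (wt) and 17687 (empty) fetal liver Brg1 peaks, 24420 (dC) and 24493 (wt) A-MuLV Brg1 peaks, and 11147 (dC) and 6155 (wt) EBF1 peaks. The A-MuLV Brg1 lists reach down to a −log10 q of 1.33 and 1.37, where the other lists stop at 10.0, so counts were not compared across these kinds of list. Fold enrichment is the authors' value for each peak, the ChIP pileup at the summit over the local background, and is used here to place a peak within its own list. All 6 B-lineage markers examined, Pax5 and Cd79a among them, had a Brg1 peak within 10 kb in each list with an EBF1 version and in both A-MuLV lists, and 4 had one with the empty vector. Vpreb1 and Igll1, both in these counts, are neighbours with the same highest peaks and are not independent. Of 4 stromal markers, 1 (dC), 1 (dPLD), 1 (F-GATA3), 2 (wt) and 2 (empty) had a fetal liver Brg1 peak, and none had an A-MuLV peak. These were not the same genes. Pdgfrb (highest fold 12.8) had peaks with the empty vector alone, Col1a1 with dC, dPLD and wt, and Thy1 with F-GATA3, wt and the empty vector. Of 4 myeloid markers 2 (dC), 2 (dPLD), 1 (F-GATA3), 2 (wt) and 4 (empty) had a Brg1 peak in fetal liver, and of 5 T-lineage markers 4 had one in each fetal liver list. Over all 21887 protein-coding genes, the share with such a peak was 63.3% (dC), 61.7% (dPLD), 60% (F-GATA3), 62.9% (wt) and 45.2% (empty) in fetal liver, and 52.1% (dC) and 52.2% (wt) in A-MuLV cells, so the T-lineage and myeloid counts with EBF1 say little at these list sizes. The part of other cells in the results was not tested. A peak near a marker is not its expression.

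Of the 5 transcription starts that RefSeq gives for the 3 genes, 4 lay under Brg1. Below are the 250 bases upstream of the 3 starts to which the results return, from RefSeq (GRCm38.p6), each 5′ to 3′ along the gene. The Pou2af1 window was covered by Brg1 in each list but that of the empty vector, and by the EBF1 dC peak. The Pou2f1 window belongs to the innermost of its 3 starts, and the Pou2f2 window to its one start in the table. In the first, capitals mark TGCAAAT, 7 of the 8 bases of the octamer. In the other 2, capitals mark the stretch between the outermost Brg1 summits inside the window.
Pou2af1, chr9:51213440-51213689, plus strand: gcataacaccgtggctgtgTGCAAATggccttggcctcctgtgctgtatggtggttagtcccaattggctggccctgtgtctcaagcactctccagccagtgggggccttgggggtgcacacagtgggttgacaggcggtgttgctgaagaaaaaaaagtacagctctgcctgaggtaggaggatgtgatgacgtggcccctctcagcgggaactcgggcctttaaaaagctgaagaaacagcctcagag
Pou2f1, chr1:165934949-165935198, minus strand: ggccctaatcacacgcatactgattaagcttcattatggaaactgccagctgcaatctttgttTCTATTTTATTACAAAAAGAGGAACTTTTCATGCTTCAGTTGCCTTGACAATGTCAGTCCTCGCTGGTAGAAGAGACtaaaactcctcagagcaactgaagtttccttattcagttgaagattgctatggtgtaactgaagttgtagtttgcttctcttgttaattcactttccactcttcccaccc
Pou2f2, chr7:25132461-25132710, minus strand: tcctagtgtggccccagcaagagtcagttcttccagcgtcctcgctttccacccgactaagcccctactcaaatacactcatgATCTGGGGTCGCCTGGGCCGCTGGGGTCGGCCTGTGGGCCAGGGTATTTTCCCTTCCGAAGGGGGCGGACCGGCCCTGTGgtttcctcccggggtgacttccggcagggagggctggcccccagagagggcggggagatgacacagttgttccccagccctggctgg

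Neither the full octamer ATGCAAAT nor the EBF core CCCNNGGG, searched on both strands, was found in these windows or in those of the other 2 Pou2f1 starts. Over all 32817 RefSeq promoter windows of the same length, 1.6% held the octamer and 11.8% the EBF core. The 7-base TGCAAAT, which lies within the octamer and was searched for after the sequence had been read, occurs in 3.57% of the windows and begins 231 bases before the Pou2af1 start. The EBF1 and Brg1 summits at Pou2af1 lie further upstream, outside the window printed, and that sequence was not analysed here.

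Around the start of Pou2af1 (chromosome 9, 51213690 to 51240079, plus strand), Brg1 formed a single broad peak with each EBF1 version and no peak with the empty vector. It ran from 51210540 to 51216702 with dC, from 51210378 to 51217481 with dPLD, from 51210650 to 51215530 with F-GATA3, and from 51210555 to 51216383 with wt. The widths were 6163, 7104, 4881 and 5829 bp, against list medians of 1248, 1325, 1139 and 1103 bp. By width these peaks ranked 119, 75, 155 and 91 in their lists. The empty-vector list had no peak in the gene or within 10 kb of it.

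By fold this peak stood near the top of each list that had it. Its fold was 25.4 with dC (rank 60 of 30301), 25.5 with dPLD (rank 26 of 27550), 21.3 with F-GATA3 (rank 81 of 25072) and 31.3 with wt (rank 14 of 29354). The 4 summits lay within 11 bp of each other, 441 to 452 bases upstream of the start. The position of the summit thus differed little between the 4 versions.

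In A-MuLV cells the same domain was called as several narrower peaks. Peaks in these lists were narrow throughout, with median widths of 348 (dC) and 381 bp (wt). By width the highest peaks of the domain, described next, ranked 236 (dC) and 144 (wt) in their lists. With dC there were 4, the highest with a fold of 13.5 (rank 243 of 24420, 1561 bp wide), and with wt 5, the highest with a fold of 12.4 (rank 751 of 24493, 1953 bp wide). The summits of these highest peaks lay 500 (dC) and 494 (wt) bases upstream of the start. With wt, 2 further peaks, at 51215374 to 51215979 (fold 5.47) and 51216060 to 51216439 (5.29), lay downstream of the start and had no dC partner, and with dC 1 peak on the upstream side, at 51210950 to 51211447 (5.87), had no wt partner.

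EBF1 itself was called once in this domain, at its Brg1 summit. The EBF1 peak ran from 51213020 to 51213692 with dC (fold 28.2, rank 361 of 11147) and from 51213019 to 51213430 with wt (fold 21.2, rank 449 of 6155). Its summits, 462 (dC) and 475 (wt) bases upstream of the start, differed by 13 bp. The nearest Brg1 summit, that of fetal liver F-GATA3, was 10 bp from the EBF1 dC summit of A-MuLV cells. Within A-MuLV cells the highest Brg1 summits lay 500 (dC) and 494 (wt) bases upstream. Over the series, 27.7% (exact Clopper-Pearson 95% interval 26.5 to 29%) of the 4719 EBF1 sites called with both forms had Brg1 in every Brg1 list but that of the empty vector.

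**Figure D1:**
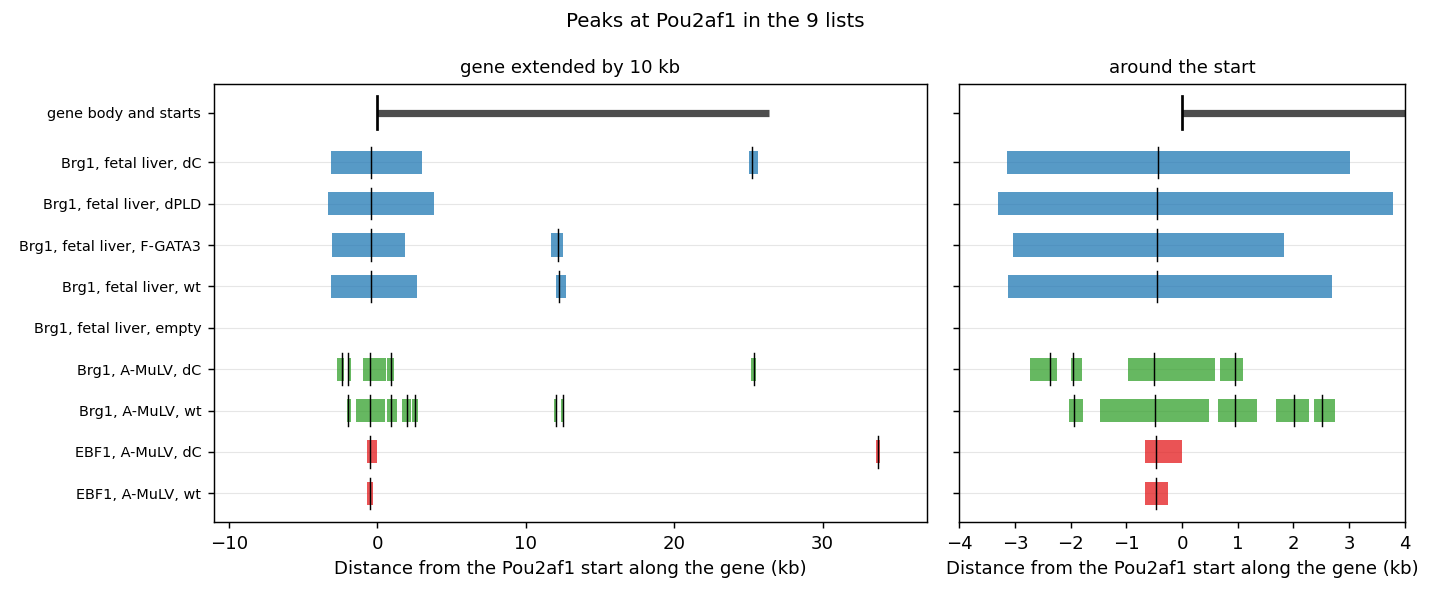
Peaks of the 9 lists at Pou2af1 by distance from its start in kb, over the whole window (left) and around the start (right); bars span peaks, black ticks mark summits, and the grey bar and tick at the top are the gene body and start. Brg1 covers the start in 6 of 7 lists and not with the empty vector, and the sites near 12.2 and 25.3 kb are each called in a part of the lists.

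Beyond the start, Pou2af1 had weak Brg1 sites that dC and wt cells did not share. A site 12.2 kb into the gene was called in fetal liver with F-GATA3 (51225361 to 51226185, fold 5.54) and with wt (51225758 to 51226389, fold 5.62), and not with dC, dPLD or the empty vector. In A-MuLV cells it was called with wt, as 2 peaks with folds of 4.91 and 4.16, and not with dC. These peaks stood low in their lists, among the top 75.1% (F-GATA3), 77.2% (wt) and 60.3% (A-MuLV wt, the higher of its 2). Of all 18765 fetal liver wt peaks absent with the empty vector, 5.9% were called with F-GATA3 but not with dC or dPLD, and 1.48% had in addition an A-MuLV peak with wt and none with dC.

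Near the end of the gene, 25.3 kb from the start, the calls were the other way round. Brg1 was called there with dC in fetal liver (51238760 to 51239305, fold 4.8) and with dC in A-MuLV cells (51238846 to 51239191, fold 3.8), and in no other list. Both peaks stood low in their lists, among the top 92.5% (fetal liver dC) and 86.2% (A-MuLV dC). Of all fetal liver dC peaks, 9.03% were absent from the other 4 fetal liver lists, and 0.799% were absent from them, overlapped an A-MuLV dC peak and overlapped no A-MuLV wt peak. An EBF1 peak called with dC alone lay 33.7 kb from the start, beyond the gene's end (51247269 to 51247583, fold 6.06), where no Brg1 list had a peak.

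Pou2f2 (chromosome 7, 25087350 to 25180797, minus strand) carried Brg1 already with the empty vector. Its one start in the table, 25132460, lies well inside the gene body, whose outer 5′ end is 25180797. A site before that start can therefore still lie in the gene. The strongest Pou2f2 site in fetal liver lay 2.72 kb downstream of the start in the table, inside the gene. It was the only one of the 25 sites called in all 9 lists. The Brg1 fold there was 17.6 with dC (rank 756), 21.0 with dPLD (rank 132), 19.0 with F-GATA3 (rank 205), 27.1 with wt (rank 59) and 7.93 with the empty vector (rank 3378 of 17687). The widths were 1726, 1812, 1713 and 2023 bp with the EBF1 versions in that order, and 823 bp with the empty vector. All 5 fetal liver summits lay between 25129688 and 25129739.

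EBF1 was called at this Pou2f2 site with both forms. The EBF1 peak had a fold of 14.5 with dC (25129593 to 25130082, rank 2110) and 8.17 with wt (25129634 to 25130124, rank 3741), with summits 13 bp apart. A-MuLV Brg1 was called there with dC (highest fold 8.15, rank 2403) and with wt (highest fold 7.43). Of EBF1 sites called with both forms, 17.5% (16.4 to 18.6%) had Brg1 in all 7 Brg1 lists.

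Brg1 also covered the Pou2f2 start in all 7 Brg1 lists, without an EBF1 peak. The folds were 11.3 with dC, 6.11 with dPLD, 9.24 with F-GATA3, 9.25 with wt and 5.5 with the empty vector, and 7.98 (dC) and 6.12 (wt) for the highest peak in A-MuLV cells. In 6 of the 7 lists the summit fell in the 80-base stretch in capitals above, and the dPLD summit lay further upstream, 629 bases before the start. A peak 55.1 kb from the start, inside the neighbouring gene Zfp574, was likewise called in all 7 lists, and met the rule only through the 10 kb extension. A site 26.2 kb downstream of the start, inside the gene, was called with each EBF1 version, with folds of 4.26 (dC), 4.32 (dPLD), 7.46 (F-GATA3) and 4.3 (wt), and not with the empty vector. These peaks stood among the top 97.7% (dC), 96.7% (dPLD), 39.6% (F-GATA3) and 97.7% (wt) of their lists. The F-GATA3 summit, at 25107093, lay apart from those of dC, dPLD and wt, at 25106009 to 25106039. In A-MuLV cells the site was called with wt, as 2 peaks with folds of 5.29 and 4.19, and not with dC.

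**Figure D2:**
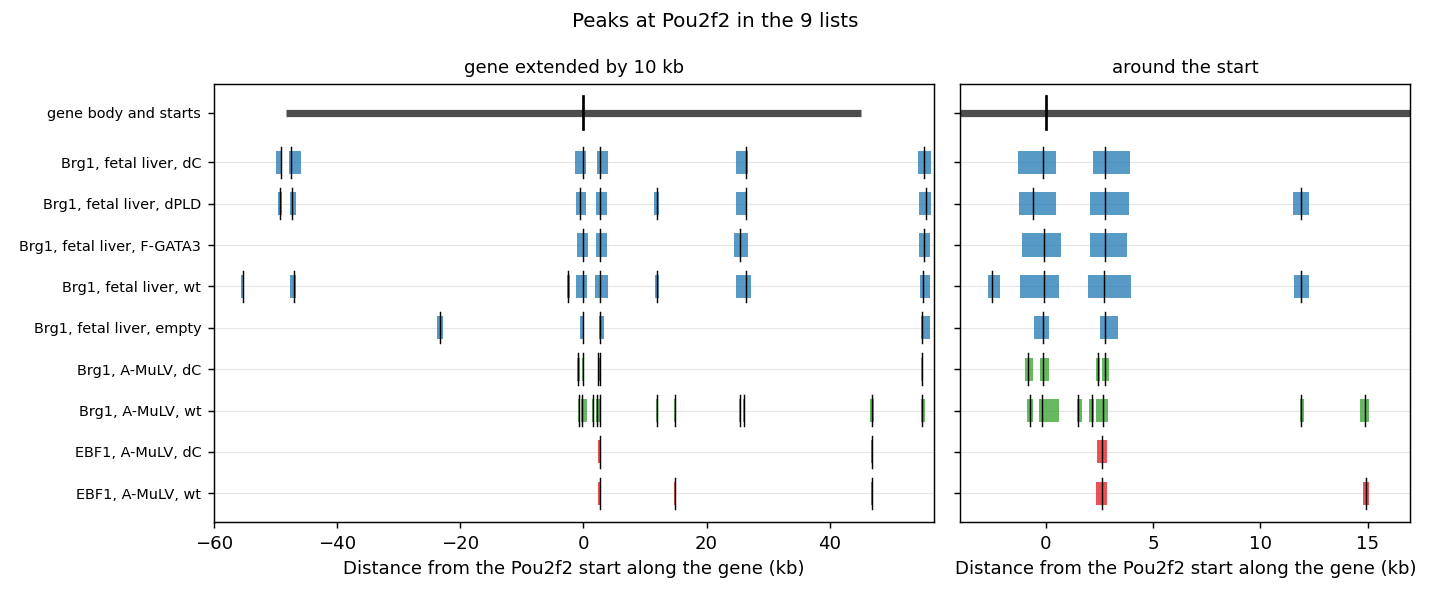
Peaks of the 9 lists at Pou2f2 by distance from its start in kb, over the whole window (left) and around the start (right); bars span peaks, black ticks mark summits, and the grey bar and tick at the top are the gene body and the one start in the table. The sites at the start and at 2.72 kb are called in all 7 Brg1 lists, while that near 11.9 kb lacks a peak in both dC Brg1 lists. Those near 14.9 and 46.8 kb have Brg1 in A-MuLV wt cells alone, and in no fetal liver list.

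Other Pou2f2 sites were called in few lists. A site 11.9 kb downstream of the start had Brg1 in fetal liver with dPLD (fold 7.52) and wt (7.82) and in A-MuLV cells with wt (4.91), and not with dC in either kind of cell. A site 14.9 kb downstream was seen in A-MuLV wt cells alone, with EBF1 (25117383 to 25117687, fold 6.27) and Brg1 (25117409 to 25117816, fold 5.51) summits 16 bp apart. A site 46.8 kb downstream, past the gene's end, had EBF1 with dC (fold 5.64, rank 10783 of 11147) and with wt (10.97, rank 2161 of 6155), A-MuLV Brg1 with wt (10.2), and no Brg1 with dC or in fetal liver. In A-MuLV wt cells it was the highest Pou2f2 site for both proteins, above that at 2.72 kb. No Brg1 in any fetal liver list with EBF1 was found at 18.8% of the EBF1 sites called with both forms. A site 47.3 kb before the start, inside the gene near its outer 5′ end, was called with dC (6.41), dPLD (5.5) and wt (6.73). Another, 49.2 kb before the start and just beyond that end, was called with dC (5.33) and dPLD (5.41) alone. A site in the lncRNA D930028M14Rik, 23.4 kb before the start and within the Pou2f2 body (25155305 to 25156239, fold 5.07), was called with the empty vector alone. The other 3 were called in 1 list each, 2 with fetal liver wt, 55.3 kb (fold 5.83) and 2.54 kb (5.28) before the start, and 1 with A-MuLV wt, 1.51 kb after it (3.86).

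Pou2f1 (chromosome 1, 165865150 to 166002749, minus strand) had a Brg1 peak at its outermost start in all 7 Brg1 lists, the empty-vector peak stopping just upstream of the start itself. The fold was 10.5 with dC, 10.3 with dPLD, 10.0 with F-GATA3, 11.0 with wt and 5.5 with the empty vector, and the peak was 3080, 3756, 3663, 3598 and 988 bp wide. The 5 summits lay 528 to 595 bases upstream of the start. In A-MuLV cells the highest peak there had a fold of 8.64 with dC and 8.69 with wt, and no EBF1 peak was called. With the empty vector this was the single Brg1 peak of the gene and its surroundings.

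The innermost Pou2f1 start, 67.7 kb downstream, lay under a Brg1 peak with each EBF1 version and not with the empty vector. The fold was 10.5 with dC, 9.67 with dPLD, 7.59 with F-GATA3 and 9.03 with wt, at widths of 2196 to 3178 bp. In A-MuLV cells it was called with dC as 1 peak (fold 3.62) and with wt as 4 (highest 7.07). The highest summit of each of the 6 lists fell in the 77-base stretch in capitals above, and no EBF1 peak overlapped the site. The middle start, whose upstream window is 26.8% G or C, had no peak in the 9 lists, while the outermost is 74.4% G or C and the innermost 40%.

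A difference between EBF1 versions at Pou2f1 lay 8 to 11 kb inside the gene, where EBF1 was called in 2 places with both forms. The outer EBF1 peak, 8.4 kb from the start, had a fold of 10.1 with dC (165994087 to 165994379) and 10.7 with wt (165994102 to 165994446). The inner one, 10.5 kb from the start, had a fold of 12.98 with dC (165991952 to 165992386) and 10.8 with wt (165991964 to 165992393). The summits of the forms differed by 12 and 8 bp. EBF1 dC was thus called at both places, at ranks of 4334 and 2665 among 11147 peaks.

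Brg1 was not called there with dC in either kind of cell. In fetal liver it was called over both EBF1 places with dPLD (165993410 to 165994623, fold 6.13, and 165991711 to 165993039, 7.77), with F-GATA3 (165993104 to 165994587, fold 7.6, and 165991737 to 165992786, 6.55) and with wt as 1 peak (165991682 to 165994909, fold 7.28). It was not called with dC or with the empty vector. In A-MuLV cells Brg1 was called at the inner place with wt (165991877 to 165992320, fold 10.2), its summit on the same base as that of EBF1 dC, and not with dC, and at the outer place in neither. Over the series, 22% of the EBF1 sites called with both forms had A-MuLV Brg1 with wt and not with dC. The share with this pattern in both kinds of cell was 6.61% (5.92 to 7.36%) of all EBF1 sites called with both forms. The pattern counted is the one seen at this site, so a small share is not a test. Of the fetal liver wt peaks absent with the empty vector, 4.43% were called with dPLD and F-GATA3 and not with dC, and 1.24% had in addition an A-MuLV peak with wt and none with dC.

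**Figure D3:**
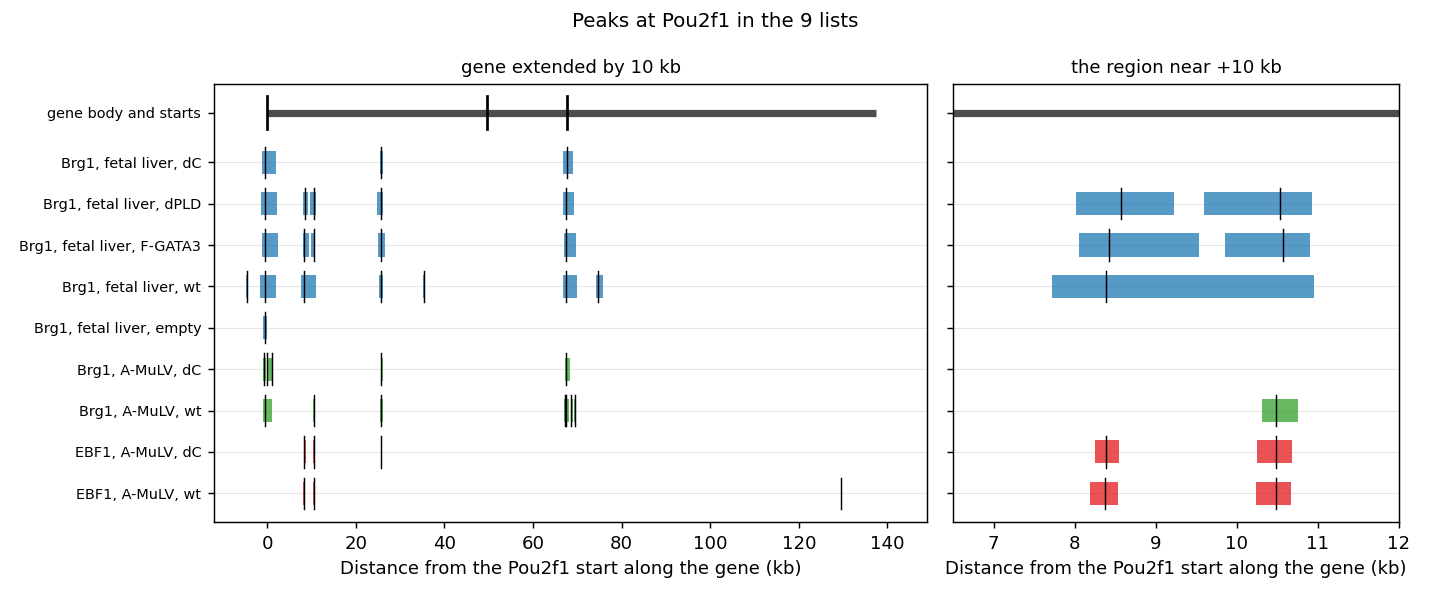
Peaks of the 9 lists at Pou2f1 by distance from its outermost start in kb, over the whole window (left) and 6.5 to 12 kb from the start (right); bars span peaks, black ticks mark summits, and the grey bar and ticks at the top are the gene body and its 3 starts. In the right panel EBF1 is called at both places with dC and with wt, and the rows for Brg1 with dC are empty in both kinds of cell.

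Further into Pou2f1, a site 25.8 kb from the start had Brg1 with all EBF1 versions. The fetal liver folds were 4.94 with dC, 8.54 with dPLD, 8.36 with F-GATA3 and 9.3 with wt, and the A-MuLV folds 5.21 with dC and 10.2 with wt. The dC peak stood among the top 90.9% of its list, and the others among the top 29.5% (dPLD), 29.2% (F-GATA3) and 27.1% (wt). EBF1 was called there with dC alone (165976687 to 165977031, fold 9.03), its summit 24 bp from the nearest Brg1 summit. In fetal liver 3 weak sites were called with wt alone, 4.61 kb before the start (fold 4.89) and 35.4 kb (4.77) and 74.6 kb (6.59) after it, and an EBF1 peak called with wt alone (fold 6.53), 129.6 kb from the start, had no Brg1.

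Counted together, the fetal liver lists held 11 (dC), 13 (dPLD), 11 (F-GATA3), 17 (wt) and 5 (empty) Brg1 peaks at the 3 genes. Of the 17 wt peaks, 9 overlapped a dC peak, 11 a dPLD peak and 10 an F-GATA3 peak, against 83.6% (dC), 83.6% (dPLD) and 77% (F-GATA3) of the whole wt list. Of the same 17 peaks, 13 overlapped no empty-vector peak and are called gained, 2 of 2 at Pou2af1, 6 of 7 at Pou2f1 and 5 of 8 at Pou2f2. Over the whole wt list the gained share was 63.9% (63.4 to 64.5%). Of the 13 gained peaks, dC had 5, dPLD 7 and F-GATA3 6, while over all gained peaks of the series the shares were 76.3% (dC), 77.2% (dPLD) and 70% (F-GATA3). These counts turned with the threshold. With a −log10 q of at least 20, dC had 5, dPLD 8 and F-GATA3 6 of 8 gained peaks, against 78.8%, 77.6% and 66.4% of all gained peaks, and with lists cut to equal length dC had 2, dPLD 5 and F-GATA3 4 of 5, against 68.4%, 75.7% and 75.9%. All 3 versions had 4 of the 13, the Pou2af1 start, the innermost Pou2f1 start, the Pou2f1 site at 25.8 kb and the Pou2f2 site at 26.2 kb, against 57.3% of all gained peaks. Of these sites the Pou2af1 start and the innermost Pou2f1 start remained called with all 3 and wt under both stricter settings, while that at 25.8 kb lost its dC peak and that at 26.2 kb its dC, dPLD and wt peaks. None of the 3 had another 5, with wt folds of 4.77 to 6.59, against 10.3% of all gained peaks. The remaining 4 differed between versions. They included the Pou2af1 site at 12.2 kb (F-GATA3), the Pou2f1 region at 8 to 11 kb (dPLD and F-GATA3) and the Pou2f2 site at 11.9 kb (dPLD). The last was the Pou2f2 site 47.3 kb before the start, near the outer 5′ end of the gene (dC and dPLD).

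**Figure D4:**
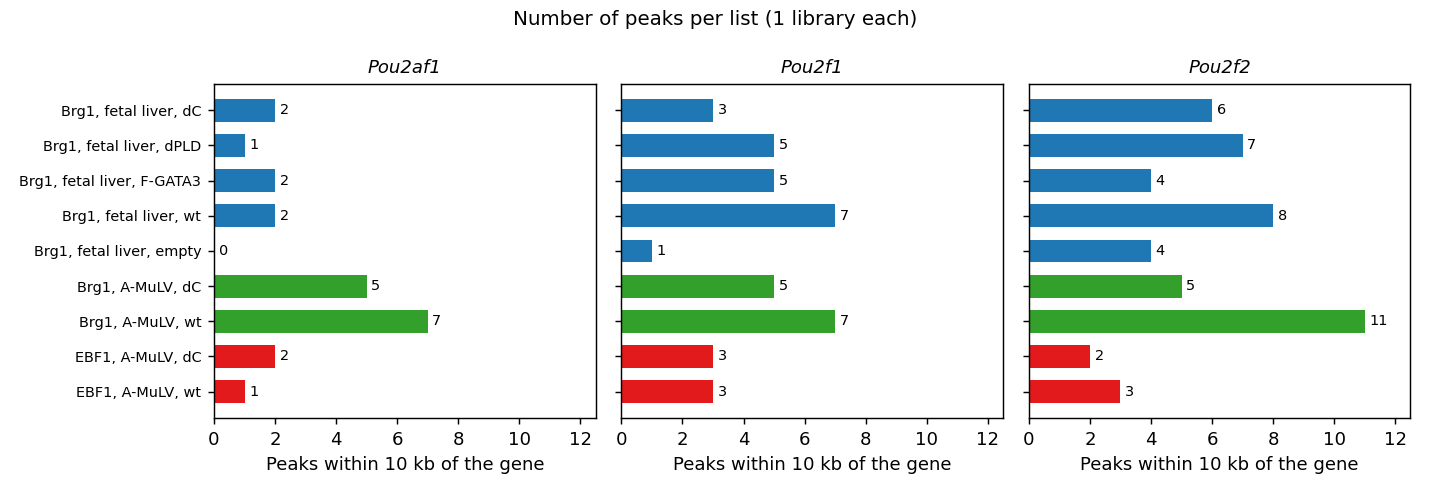
Number of peaks within 10 kb of each gene in the 9 lists, 1 library each, with fetal liver Brg1 in blue, A-MuLV Brg1 in green and EBF1 in red. With the empty vector Pou2af1 has 0 peaks, Pou2f1 1 and Pou2f2 4. A-MuLV wt cells have more Brg1 peaks than A-MuLV dC cells at each gene, but merged sites at Pou2af1 number 2 with each.

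Peaks found with an altered EBF1 and not with wt numbered 2 of the 11 dC peaks (20.8% of the whole dC list), 1 of the 13 dPLD peaks (13.1% of its list) and 0 of the 11 F-GATA3 peaks (9.36% of its list), counts too small to set apart from the whole-list shares. The dC and dPLD peaks at Pou2f2 were the same site, 49.2 kb before the start.

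In A-MuLV cells Brg1 peaks at the 3 genes were fewer with dC than with wt, 15 against 25. Of the 15 dC peaks, 2 had no wt partner, both at Pou2af1, and over the whole dC list the share was 34.4%. Of the 25 wt peaks, 14 had no dC partner, 4 at Pou2af1, 3 at Pou2f1 and 7 at Pou2f2, and over the whole wt list the share was 37.6%. Neighbouring peaks of 1 broad domain are counted separately here, and by merged sites the counts were 8 with dC and 14 with wt. By gene, merged sites numbered 2 (dC) and 2 (wt) at Pou2af1, 3 and 4 at Pou2f1, and 3 and 8 at Pou2f2. The whole-list shares above count unmerged peaks, and none is given for merged sites. With a −log10 q of at least 20, peaks called with dC alone or wt alone numbered 0 at each gene.

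EBF1 peaks fell at 9 places, 5 called with both forms, 2 with dC alone and 2 with wt alone. Over the series, 57.9% of the EBF1 dC peaks were called with dC alone and 23.3% of the EBF1 wt peaks with wt alone. Of the 5 places called with both forms, Brg1 was called at 2 with dC, 4 with dPLD, 4 with F-GATA3, 4 with wt and 1 with the empty vector in fetal liver, and at 2 with dC and 4 with wt in A-MuLV cells. Over all EBF1 sites called with both forms, these shares were 63.7%, 70.2%, 70.9%, 76.4% and 20.8% in fetal liver, and 59.4% and 76.9% in A-MuLV cells. The Pou2f1 place called with dC alone, at 25.8 kb, had Brg1 in each list but that of the empty vector, and the Pou2af1 place called with dC alone had it in none. Over all EBF1 sites called with dC alone, Brg1 was found at 45.5% with dC, 45.3% with dPLD, 39.4% with F-GATA3, 45.3% with wt and 17.9% with the empty vector in fetal liver, and at 36% with dC and 30.2% with wt in A-MuLV cells. Of the places called with wt alone, that of Pou2f2 had Brg1 with A-MuLV wt and that of Pou2f1 had none. Over all EBF1 sites called with wt alone, the shares were 15.5%, 23%, 36.4%, 35.9% and 4.25% in fetal liver, and 6.55% and 55.7% in A-MuLV cells, in the same order. Among the places called with both forms, those with Brg1 in both dC lists were the Pou2af1 start and the Pou2f2 site at 2.72 kb.

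The 3 genes differed in how high their strongest peak stood within each list. At Pou2af1 it stood among the top 0.198% (dC), 0.0944% (dPLD), 0.323% (F-GATA3) and 0.0477% (wt) of the fetal liver peaks. At Pou2f2 it stood among the top 2.49% (dC), 0.479% (dPLD), 0.818% (F-GATA3), 0.201% (wt) and 19.1% (empty), and at Pou2f1 among the top 18.8%, 16.3%, 16.4%, 16.7% and 71.8% in the same order. In A-MuLV cells the 3 genes stood closer together, with Brg1 among the top 0.995% (dC) and 3.07% (wt) at Pou2af1, 9.84% and 6.09% at Pou2f2, and 7.08% and 6.09% at Pou2f1. The EBF1 peak of Pou2af1 stood among the top 3.24% with dC and 7.29% with wt. Lists differ in length, so these places describe each list and show no change between them.

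**Figure D5:**
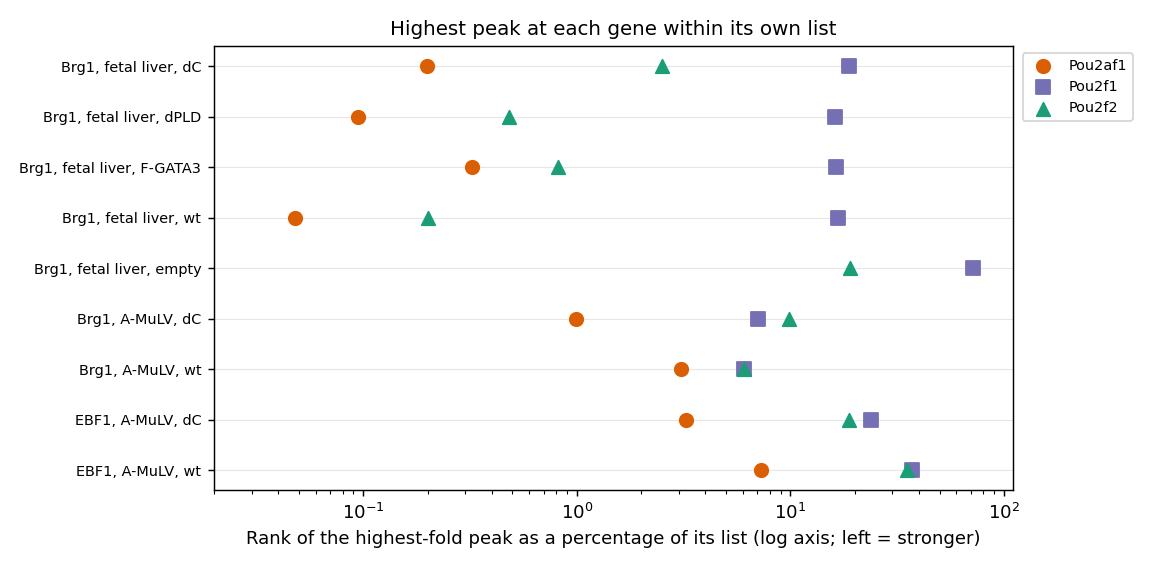
Rank of the highest-fold peak at each gene as a percentage of its list (log axis, left is stronger), for the 9 lists, with 1 symbol per gene. Pou2af1 has the leftmost symbol in each list where it has a peak, and no symbol for the empty vector; Pou2f1 and Pou2f2 coincide at 6.09% in the A-MuLV Brg1 wt list.

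Other protein-coding genes shared these patterns of strongest peaks. Likeness was the mean absolute difference, over the 9 lists, in the rank of the highest peak within 10 kb, on a scale of 0 to 1 with 0 for no peak. Closest to Pou2af1 were Wdr66 (difference 0.00727), Gm867 (0.00733), Iqsec1 (0.00921), Vpreb3 (0.0106) and Lrrc32 (0.0118), of which Gm867 and Vpreb3 had the same highest peaks with an EBF1 version. Closest to Pou2f2 was Tfeb (0.0211), followed by Wwox, St3gal6, Parvb and Dtnbp1 (0.0300). Closest to Pou2f1 was Golga1 (0.0425), followed by Szrd1, Ticam1, Gipc3 and Stambpl1 (0.0514).

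Brg1 was also called near genes listed as targets of OBF-1, Oct2 or both. Of 10 such genes, 8 (dC), 10 (dPLD), 10 (F-GATA3), 10 (wt) and 5 (empty) had a fetal liver Brg1 peak within 10 kb, against the shares of all protein-coding genes given above (60% to 63.3% with EBF1 and 45.2% with the empty vector). A gained peak lay near 9 of the 10, against 48.9% of genes. Gene length was not matched in these and the following comparisons with all genes, and no enrichment was tested. The gene lists were chosen with earlier results of these data known, so these counts give no independent support for a link. The 2 without a dC peak were Ms4a1, which encodes the B-cell surface protein CD20, and Cd36, which encodes a scavenger receptor. Ms4a1 had highest folds of 7.23 (dPLD), 13.9 (F-GATA3) and 16.5 (wt), and Cd36 of 8.22, 7.8 and 13.1, and neither had an empty-vector, A-MuLV or EBF1 peak. Btk, which encodes a kinase of B-cell receptor signalling, had 14.0 (dC), 13.2 (dPLD), 10.2 (F-GATA3) and 16.2 (wt) and no empty-vector peak. Il5ra, which encodes a receptor chain for IL-5, had 6.41, 7.61, 7.25 and 10.8, and Crisp3 had 10.1, 8.94, 9.94 and 9.49, again with no empty-vector peak.

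In A-MuLV cells 6 of the 10 target genes had a Brg1 peak with dC and 6 with wt, against 52.1% and 52.2% of genes, and 5 had an EBF1 peak with dC and 6 with wt, against 32.9% and 19.9%. The partners of the octamer factors include the SNAPC subunits that act with Oct1 at small nuclear RNA genes. Of 8 matched partners, 7 had a fetal liver Brg1 peak with each EBF1 version and 5 with the empty vector. Over all protein-coding genes the shares were 60% to 63.3% with EBF1 and 45.2% with the empty vector. In 2 of the 7 partners, Npat (highest fold 7.87 with wt) and Snapc5 (8.19 with wt), no empty-vector peak was called. Partners had 1 gene with an EBF1 dC peak, Snapc5, and 0 with an EBF1 wt peak, against 32.9% and 19.9% of genes. Of 9 other POU factor genes, 3 had a fetal liver Brg1 peak with each EBF1 version and 0 with the empty vector, against the same fetal liver shares of all genes. Pou4f1 (8.98 with wt) was the highest, and the related octamer gene Pou2f3 had no peak in the 9 lists.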

How the data were processed

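Peak lists of 9 ChIP-seq libraries were used, and the 5 inputs were not analysed here. Per the submitters' processing notes, the tools were MACS2 2.1.2, deepTools 3.3.1, SAMtools 1.9 and Bowtie2 2.3.3.1, with GRCm38 as build. How the authors set the peak threshold, handled duplicates and assigned inputs is not given in the sources used here. Fetal liver Brg1 used 2% formaldehyde with EGS, A-MuLV Brg1 1% with EGS, and EBF1 1% formaldehyde alone, per the labels' protocols. The deposited fold enrichment is a ratio of ChIP pileup to local background at the summit. Each peak's deposited −log10 p and −log10 q belong to its summit. The score the authors deposited equals 10-fold the −log10 q as a whole number, which was checked on the values, while the other meanings come from the peak format.

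Only chromosomes 1 to 19, X and Y were used, in 1-based coordinates. Gene positions and promoter sequences came from RefSeq tables for GRCm38.p6, without exons. Peaks of 2 lists that shared at least 1 bp were taken as called in both, and merged sites join overlapping peaks of any list. Shares over whole lists are the background to each count, with exact Clopper-Pearson 95% intervals (scipy 1.17.1), which cover counting error only. Some joint patterns over several lists follow the calls at single sites described above, so their small shares test nothing. The overlap code was tested on simulated intervals. Genes named outside the members follow from the likeness measure, or are list members with no empty-vector peak, by highest wt fold and at most 8. Of the gene lists, 2 symbols, Pou2af2 and Pou2af3, had no match in the table, and 1 B-lineage marker is not reported here. The members and lists were chosen with earlier results of these data known. The alternatives tried were a minimum −log10 q of 20, an overlap of 50% of the shorter peak, lists of equal length (the shortest of each kind, kept by −log10 p), and gene bodies without the 10 kb.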

Additional observations from a re-analysis of the deposited data

How the results depend on the processing

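An overlap of 50% of the shorter peak moved none of the 18 counts recomputed by more than 1.5 times. With a −log10 q of at least 20, 9 of 24 counts moved: gained peaks fell to 1 at Pou2af1 and 3 at Pou2f2, those kept with F-GATA3 to 1 at Pou2af1, A-MuLV peaks called with dC alone to 0 at Pou2af1 and with wt alone to 0 at Pou2af1, 0 at Pou2f1 and 0 at Pou2f2, and EBF1 dC peaks to 1 at Pou2af1 and 1 at Pou2f2. With lists of equal length, 10 of 24 moved: gained peaks fell to 1 at Pou2af1, 3 at Pou2f1 and 1 at Pou2f2, those kept with dC to 1 at Pou2f1 and 0 at Pou2f2, with dPLD to 1 at Pou2f2, with F-GATA3 to 1 at Pou2af1 and 0 at Pou2f2, and EBF1 dC peaks to 1 at Pou2af1 and 1 at Pou2f2. With gene bodies alone, 4 of 24 moved: A-MuLV peaks called with dC alone to 1 at Pou2af1, EBF1 dC peaks to 1 at Pou2af1 and 1 at Pou2f2, and EBF1 wt peaks to 0 at Pou2af1. Fewer peaks enter under each of these settings except the overlap, and under the stricter q the empty-vector list shrinks too, so peaks at the Pou2f1 and Pou2f2 starts count as gained. Of gained peaks at the 3 genes, dPLD then had 8 of 8 under the stricter q and 5 of 5 with equal length, against 7 of 13 without either.

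The Pou2af1 start remained called in the same 8 lists under the stricter q and under equal length. The Pou2f1 region at 8 to 11 kb remained called with dPLD, F-GATA3 and wt and not with dC in fetal liver under both, and its A-MuLV Brg1 wt peak (−log10 q 18.9) was lost under the stricter q. The Pou2f1 site at 25.8 kb lost its fetal liver dC call under both, and the Pou2f2 site at 26.2 kb was left with F-GATA3 in fetal liver. The Pou2af1 sites at 12.2 and 25.3 kb were absent from the fetal liver lists under both. No paired analysis was possible because each group had 1 library and the labels number no replicates.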
